A study of Mus musculus with 2 samples.

Results

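OG4 is the cluster that the study labelled as mature osteoblasts among the cells of the mouse coronal suture, the fibrous joint between the frontal and parietal bones of the skull. The cells described here are all those to which the deposited cell table gave the cluster name OG4, and they were matched to the deposited count matrices by barcode and library. They numbered 717 of 12165 labelled cells, and the other cells belonged to the remaining clusters of 15 in all: OG1 to OG3 (osteogenic), PO1 and PO2 (proliferating osteogenic), EC1 to EC4 (ectocranial), LIG (ligament-like) and MG1 to MG4 (meningeal). Both libraries came from wildtype C57/BL6 embryos and were made with a droplet 3′ kit that counts unique molecular identifiers (UMIs), one for each captured transcript molecule. The E15.5 library pooled 10 sutures, which were dissociated with dispase and collagenase II and then depleted of dead cells with a kit. The E17.5 library combined 3 batches of dissected sutures from 2 litters, which were digested with collagenase IV and sorted by flow cytometry. No gene was altered in either group. There was 1 library per stage, so no value below has a replicate check and no test was made. Stage, enzyme, cell sorting, sequencing centre and counting software all differ between the 2 libraries at once, and their parts in any difference between stages cannot be told apart.

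Osteoblasts are the cells that make bone. They secrete type I collagen and load it with non-collagenous proteins, among them the acidic phosphoproteins of the SIBLING family (bone sialoprotein, osteopontin, DMP1 and MEPE), and they supply the enzymes that let hydroxyapatite form in that matrix. The transcription factor RUNX2 and then SP7 (osterix) commit a progenitor to this fate, and some osteoblasts are later buried in the bone as osteocytes, which switch on *Dmp1*, *Phex*, *Mepe* and *Sost*. In the skull vault this happens directly in mesenchyme, without a cartilage template, along the edges of the bones that border the suture.

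OG4 cells made up 3.56% of the labelled cells at E15.5 (190 of 5335, exact 95% interval 3.08 to 4.09%) and 7.72% at E17.5 (527 of 6830, 7.09 to 8.37%). The 3 barcode suffixes found at E17.5, which the labels do not tie to batches or litters, had 7.29%, 7.80% and 7.82% OG4 cells among their labelled cells, so the share varied less among suffixes than between libraries. Intervals here and below cover counting error alone. At E15.5 the OG4 cells held 1809563 UMIs in all, with a median of 7352 per cell against 8521 in the rest. The E17.5 ones held 10496361 UMIs, with a median of 19349 per cell against 11907. By the median, OG4 cells thus were shallower than the other labelled cells of one library and deeper than those of the other. Mitochondrial transcripts had a median of 3.24% in OG4 cells at E15.5 against 1.62% in the others, and of 2.37% against 2.30% at E17.5. At E15.5, 13 of the 190 cells lay outside the study's stated limits on gene number, mitochondrial share or haemoglobin share. No OG4 barcode sequence occurred in both libraries or in more than 1 suffix, whereas 42 barcode sequences were shared by both libraries among all labelled cells. A doublet caller placed 8 OG4 cells of the E15.5 library (4.21%) and 34 of the later one (6.45%) at or above the 94th percentile of scores. The percentile was taken over the labelled cells of the E15.5 library and of each suffix at E17.5.

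The 3 marker genes of the label were highest in OG4 of all 15 clusters in both libraries. *Ifitm5*, which encodes a membrane protein of mineralizing osteoblasts, stood at 3263 CPM (UMIs of a gene per 1000000 UMIs, both summed over the cells) in OG4 and 11.1 CPM in the other cells at E15.5, a ratio of 295 (exact 95% interval 269 to 323). At E17.5 it stood at 3238 and 57.8 CPM, a ratio of 56.1 (54.4 to 57.8). The level of *Ifitm5* in OG4 was therefore nearly equal in the libraries, and the level outside OG4 differed. *Dmp1*, which encodes a SIBLING protein of osteocytes and late osteoblasts, was at 603.5 against 1.41 CPM in the E15.5 library and at 89.2 against 1.11 CPM at E17.5. *Sp7* was at 203.9 against 4.92 CPM in the E15.5 library and at 317.5 against 90.8 CPM at E17.5, where OG3 (187.5 CPM), PO1 (179.9 CPM) and OG2 (171.6 CPM) also held it. The next cluster below OG4 reached 42.5 and 126.1 CPM of *Ifitm5* (OG3 and PO1) and 12.4 and 2.48 CPM of *Dmp1* (OG3), whereas *Sp7* marked the osteogenic clusters more broadly at E17.5. The clusters were built from these genes, so their height in OG4 describes the cluster and is not a finding about it.

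**Figure D1:**
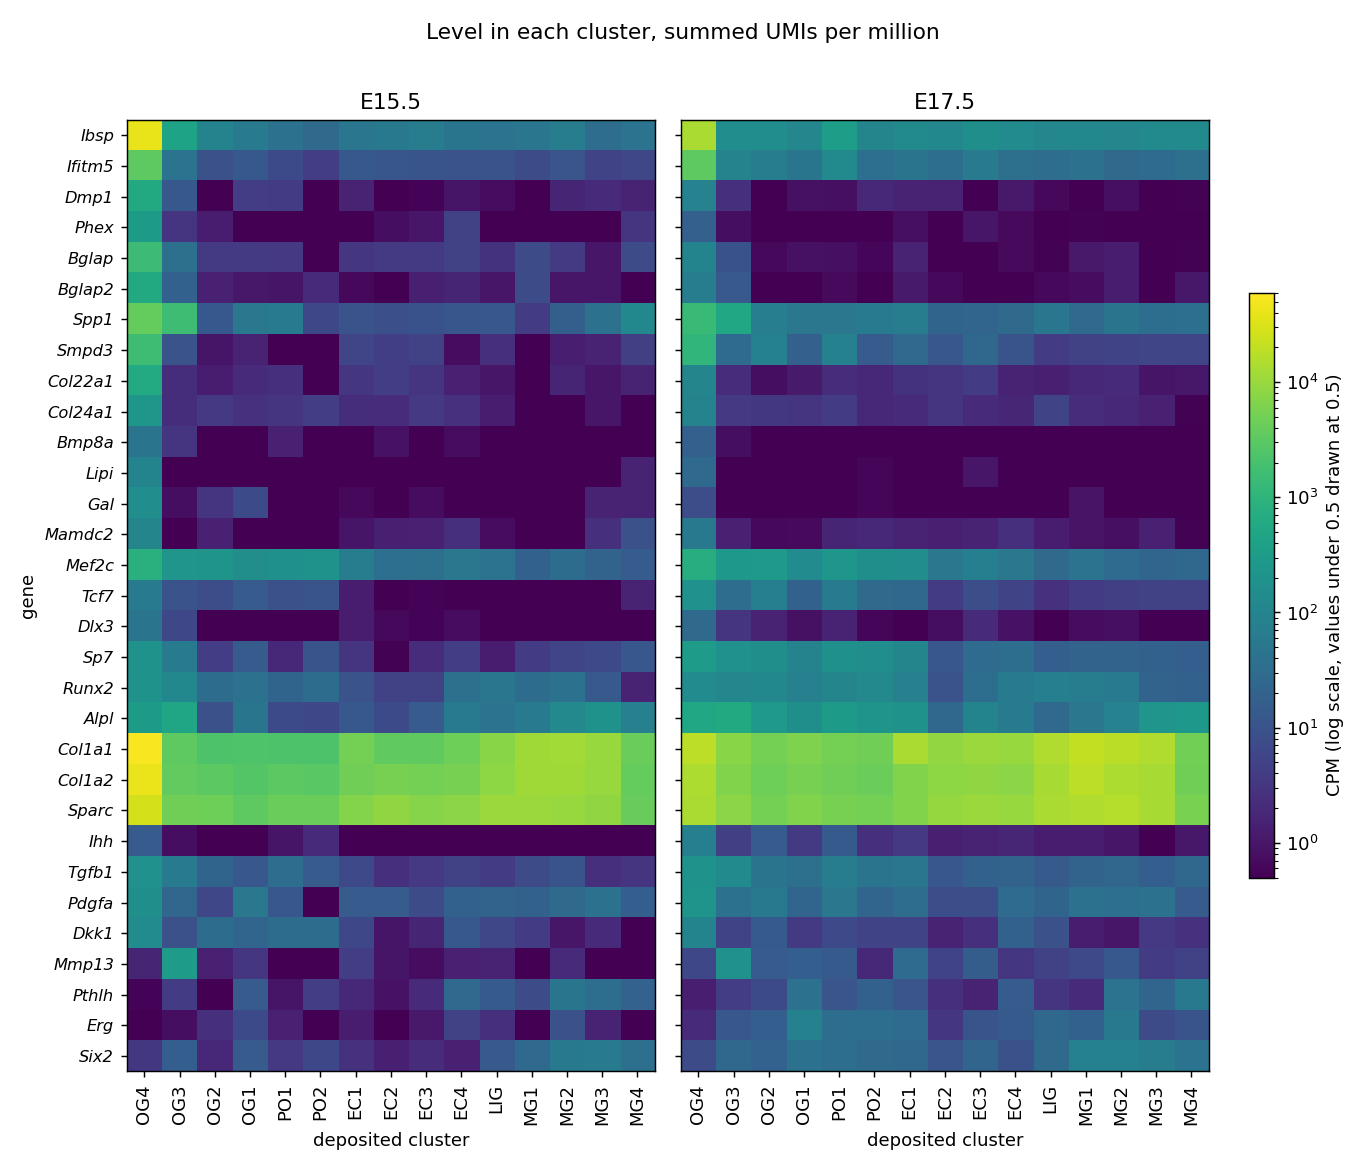
Heat map of CPM over the cells of a cluster (log colour scale, values under 0.5 drawn at 0.5) for named genes (rows) in each of the 15 labelled clusters (columns), at E15.5 on the left and E17.5 on the right. The OG4 column at the left edge of each panel is the brightest for *Ibsp*, *Ifitm5* and *Dmp1*, and at E17.5 *Sp7* is also seen in OG3 (187.5 CPM), PO1 and OG2.

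Many genes of the bone matrix list were higher in OG4. Against all other labelled cells, 367 of 12150 genes compared (3.02%) were at least 2-fold higher in OG4 in both libraries and 1629 (13.4%) were lower by the same factor or more. Of the 20 members of the list, 19 had enough counts, 11 of them were higher in both libraries and 1 was lower (*Smoc2*). The median ratio of OG4 to the others was 32.6 in the E15.5 library and 3.00 at E17.5, beside medians over all genes of 0.710 and 0.835. Summed over the list, OG4 held 180800 CPM in the E15.5 library and 64730 CPM at E17.5, against 19140 and 29350 CPM in the other cells. For 12 members no other of the 15 clusters reached the OG4 level in either library, beside 4.75% of all genes. These transcripts thus took a far larger part of the OG4 libraries than of the rest, above all at E15.5.

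Within this group, 4 SIBLING genes lie side by side on the plus strand of mouse chromosome 5 (GRCm38, GENCODE): *Dmp1* at chr5:104202613-104214102, *Ibsp* at chr5:104299171-104311469, *Mepe* at chr5:104325329-104338611 and *Spp1* at chr5:104435118-104441050. *Bglap*, which encodes osteocalcin, lies on the minus strand at chr3:88383501-88384464. The RefSeq sequences of the 250 bases before the start of 3 of these SIBLING genes and of *Bglap* are printed because they are the promoters of bone matrix genes that were high in OG4 and far lower in the rest of the suture. Each reads 5′ to 3′ on the strand of its gene (GRCm38.p6). Capitals mark 3 motifs searched on both strands. The first is TGTGGT, the core letters bound by RUNX factors, which reads ACCACA on the opposite strand. The second is the TATA box motif TATAAA, which reads TTTATA on the opposite strand. The last is the inverted CCAAT box motif GATTGG, which was added to the search after these sequences had been seen. The windows are chr5:104299037-104299286 for *Ibsp*, chr5:104202367-104202616 for *Dmp1*, chr5:104434861-104435110 for *Spp1* and chr3:88384467-88384716 for *Bglap*.
Ibsp: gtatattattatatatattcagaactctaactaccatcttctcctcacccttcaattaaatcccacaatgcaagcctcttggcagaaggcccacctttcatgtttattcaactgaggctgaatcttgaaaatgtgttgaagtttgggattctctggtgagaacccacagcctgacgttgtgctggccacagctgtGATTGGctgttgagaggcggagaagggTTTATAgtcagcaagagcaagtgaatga
Dmp1: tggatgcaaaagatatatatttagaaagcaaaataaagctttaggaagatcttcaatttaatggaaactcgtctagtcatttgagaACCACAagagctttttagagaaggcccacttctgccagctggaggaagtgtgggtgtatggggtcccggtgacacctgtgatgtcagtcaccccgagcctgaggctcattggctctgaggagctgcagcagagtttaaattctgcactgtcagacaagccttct
Spp1: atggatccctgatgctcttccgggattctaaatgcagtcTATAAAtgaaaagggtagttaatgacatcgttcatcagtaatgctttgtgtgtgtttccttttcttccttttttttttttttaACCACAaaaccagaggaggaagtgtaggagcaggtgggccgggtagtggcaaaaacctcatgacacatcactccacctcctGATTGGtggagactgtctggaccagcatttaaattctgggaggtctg
Bglap: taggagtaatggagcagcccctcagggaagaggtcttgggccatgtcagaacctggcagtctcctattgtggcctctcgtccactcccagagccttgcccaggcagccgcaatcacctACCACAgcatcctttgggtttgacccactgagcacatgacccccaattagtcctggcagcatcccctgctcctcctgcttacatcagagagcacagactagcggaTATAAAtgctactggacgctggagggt

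These windows differ in what they hold. Distances are counted from the RefSeq starts. For *Ibsp* the RefSeq start lies downstream of the GENCODE start given above, so part of its window lies inside the gene as GENCODE places it. The *Dmp1* window passes its GENCODE start by a few bases. The *Ibsp* window has GATTGG 55 bases and TTTATA 28 bases before the RefSeq start, both downstream of the GENCODE start, and no TGTGGT on either strand. *Spp1* has TATAAA at 211, ACCACA at 128 and GATTGG at 47 bases before its start. *Bglap* has ACCACA at 132 and TATAAA at 27 bases, and *Dmp1* has ACCACA at 164 bases before the start shown here. *Dmp1* and *Spp1* each have a further RefSeq start that is not shown. Among all 32851 promoters of this length, 14.0% held TGTGGT, 12.4% held TATAAA and 14.6% held GATTGG on either strand. Counted by gene, as the lists are, the shares were 15.9%, 14.3% and 16.6% of 27025 genes. Of the 20 bone matrix genes 15 had a promoter in the table, and 4, 6 and 6 of them held these motifs, respectively. The same counts were 1, 4 and 0 among the 11 of 20 matched genes of the fibrous matrix list that is low in OG4. The windows of *Ifitm5* and *Phex* held none of these letters. A match of letters is not a bound site.

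*Ibsp*, which encodes bone sialoprotein, had the largest ratio by the smaller of its values in the libraries. It stood at 41200 CPM in OG4 and 69.2 CPM in the other cells at E15.5, a ratio of 595.5 (575 to 617). At E17.5 it stood at 13640 and 148.0 CPM, a ratio of 92.2 (90.5 to 93.9). The next cluster was OG3 at E15.5 (449 CPM) and PO1 at E17.5 (335 CPM), so no other cluster came near it. *Spp1*, which encodes osteopontin, differed from *Ibsp* in being high in OG3 as well: 3830 CPM in OG4 and 1598 CPM in OG3 in the E15.5 library, against 1297 and 560.2 CPM in the later one. *Mepe* was nearly absent, with 3 UMIs in OG4 in the E15.5 library and 10 at E17.5, and none in any other labelled cell. *Bglap* stood at 1505 against 4.53 CPM in the E15.5 library and at 96.4 against 2.08 CPM at E17.5. *Bglap2*, a near-identical copy at chr3:88377736-88378699, stood at 605.7 against 1.56 CPM and at 68.3 against 2.51 CPM, and since reads of the pair can be split between them their separate levels are uncertain.

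The collagens divided into those shared with the other clusters and those concentrated in OG4. UMIs count molecules caught at their 3′ end, so levels of different genes were set side by side without scaling to length. *Col1a1* and *Col1a2*, which encode the chains of type I collagen, were the highest genes of OG4 in both libraries, at 53090 and 42300 CPM in the E15.5 library and 18760 and 14390 CPM at E17.5. Their ratios to the other cells were 11.4 and 7.39 in the E15.5 library but 1.91 and 1.71 in the later one, below the 2-fold limit. OG4 was the highest of 15 clusters for them in the E15.5 library and the second at E17.5. In contrast, *Col22a1* (267 and 55.7 times the others), *Col24a1* (100.7 and 30.3 times), *Col11a2* (48.4 and 22.4 times) and *Col13a1* (26.3 and 15.1 times) were far higher in OG4 in both libraries. *Col11a1* was 7.27 times the others in the E15.5 library and 1.52 times at E17.5. *Omd*, which encodes the keratan sulfate proteoglycan osteomodulin, was 32.6 and 3.00 times the others.

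Of the mineralization list 12 of 14 members had enough counts, with 6 higher in both libraries and 1 lower, beside 3.02% and 13.4% of all genes. *Smpd3*, which encodes neutral sphingomyelinase 2 and is needed for bone mineralization, stood at 1613 against 3.38 CPM in the E15.5 library and at 1123 against 27.9 CPM at E17.5. *Phex*, which encodes an endopeptidase that limits the phosphate-regulating hormone FGF23, stood at 287.4 against 1.15 CPM and at 18.4 against 0.292 CPM. *Alpl*, which encodes the alkaline phosphatase that removes the mineralization inhibitor pyrophosphate, was 6.08 and 2.55 times the others but was higher in OG3 than in OG4, at 480.8 against 296.8 CPM in the E15.5 library and 607.0 against 547.4 CPM at E17.5. The member that was lower in both was *Mgp*, which encodes the mineralization inhibitor matrix Gla protein, at 206.7 against 521.7 CPM and 402.4 against 1149 CPM. *Enpp1* and *Ank*, whose proteins supply extracellular pyrophosphate, were 19.8 and 10.48 times the others in the E15.5 library and 0.580 and 0.898 times at E17.5. The genes of phosphate and pyrophosphate handling thus did not move as 1 group. *Phospho1* had no UMI in OG4 in the E15.5 library and 1.62 CPM at E17.5.

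The 15 genes with the largest ratios, by the smaller of both libraries and with at least 50 UMIs in OG4 in each, also included enzymes, a transporter and signals. *Lipi*, which encodes a phosphatidic acid lipase, stood at 99.5 against 0.0855 CPM at E15.5, where the others had 4 UMIs in all, and at 27.1 against 0.304 CPM at E17.5. *Slc13a5*, which encodes a citrate transporter, was 324 and 32.1 times the others, and *Car3*, a carbonic anhydrase, 232.5 and 41.6 times. *Chst13*, which encodes a chondroitin sulfotransferase, was 213 and 35.4 times the others. *Gal*, which encodes the neuropeptide galanin, stood at 156.4 CPM in the E15.5 library and 7.91 CPM at E17.5 and was still 162.6 and 54.1 times the others. *Bmp8a*, a ligand of the BMP family, was 89.9 and 81.7 times the others. The remaining genes of the 15 with the largest ratios were *Mamdc2* (75.2 and 45.5 times) and the unnamed locus *C430049E01Rik* (384 and 65.7 times).

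**Figure D2:**
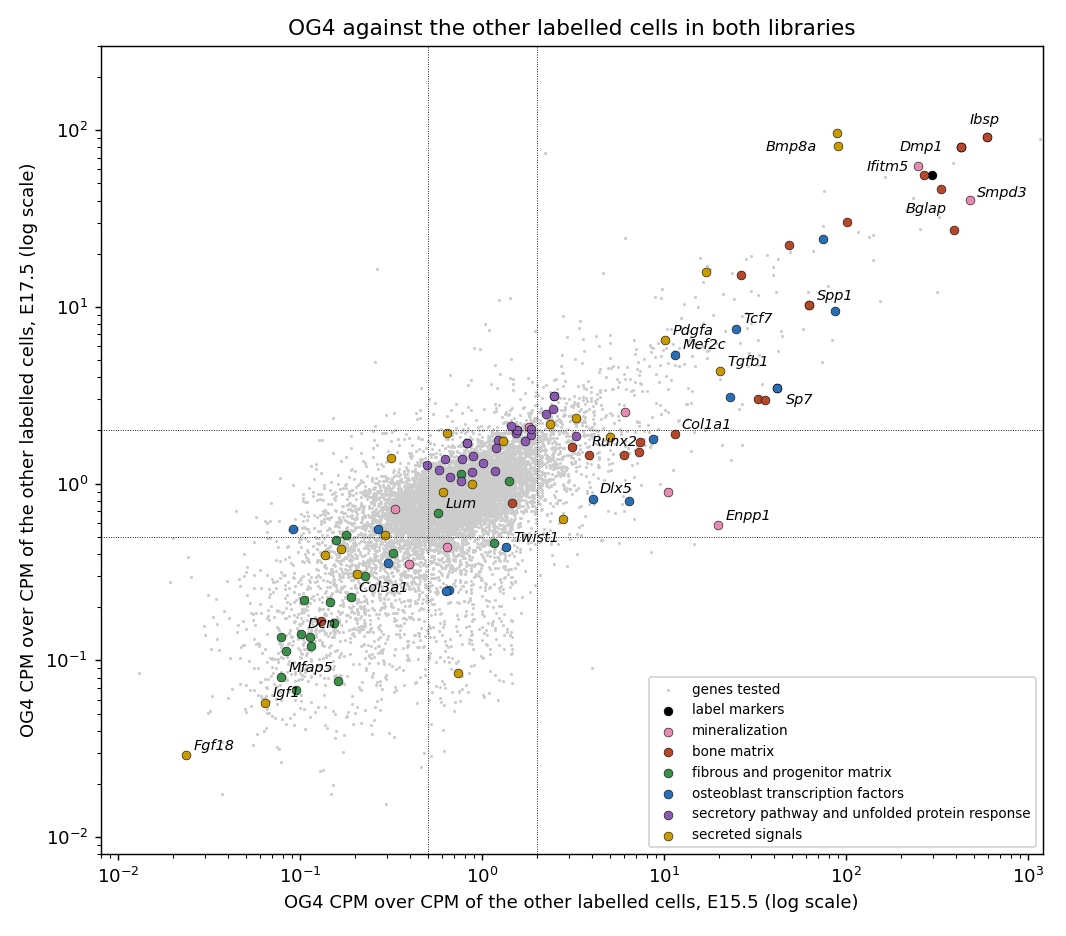
Ratio of OG4 CPM to that of the other cells, with E15.5 on the horizontal and E17.5 on the vertical log axis, with grey dots for the 12150 genes compared, coloured points for genes of 7 lists and dotted lines at 2-fold in either direction. Bone matrix genes lie toward the upper right, most of them with a larger ratio at E15.5, and fibrous matrix genes lie toward the lower left.

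Transcription factors of the osteoblast list were mixed. All 18 were compared, 7 were higher in both libraries and 1 was lower, beside 3.02% and 13.4% of all genes. *Dlx3* (74.0 and 24.2 times), *Mef2c* (11.4 and 5.35 times), *Tcf7* (24.8 and 7.53 times), *Vdr* (22.9 and 3.08 times) and *Creb3l1* (2.47 and 3.13 times) were higher as *Sp7* was. *Runx2* was 8.66 times the others in the E15.5 library and 1.80 times at E17.5. Among further homeobox genes, *Msx2* was at 14.4 against 58.3 CPM and *Msx1* at 28.9 against 115.7 CPM at E17.5, with ratios of 0.627 and 0.659 at E15.5. In the E15.5 library *Dlx5* was 4.04 times and *Dlx6* 6.37 times the others, against 0.824 and 0.798 in the later one. *Twist1*, whose loss of function causes coronal craniosynostosis, stood at 45.9 against 33.9 CPM in the E15.5 library and 43.8 against 100.6 CPM at E17.5. The level of *Twist1* in OG4 thus did not differ between the libraries beyond counting error, and the level outside OG4 did. Against the other osteogenic clusters alone its ratio at E15.5 was 0.862, on the other side of 1. *Lef1* was lower in both, at 0.302 and 0.358 of the others.

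Among the 22 genes of collagen I processing, 3 were higher in both libraries and 1 lower, with medians of 1.72 and 1.24. Over all genes compared, 3.02% were higher and 13.4% lower, and the lists below are to be read beside these shares. The 3 higher ones were *P4ha1* (3.73 and 3.43 times) and *P4ha2* (2.12 and 3.04 times), which encode prolyl hydroxylase subunits, and *Fkbp10* (2.68 and 2.23 times), which encodes a collagen chaperone. *Loxl1*, a lysyl oxidase better known from elastic fibres, was lower, at 0.0984 and 0.161 of the others. Among the 23 genes of the secretory pathway and the unfolded protein response, *Creb3l1*, *Sec61b* (2.25 and 2.46 times) and *Sec61a1* (2.45 and 2.64 times) were higher, and the list medians were 1.19 and 1.71. The list of osteogenesis imperfecta genes, whose variants cause brittle bone disease, had 21 of 22 members compared, with 5 higher and none lower. Those 5 were *Ifitm5*, *Sp7*, *Creb3l1*, *Fkbp10* and *Fam46a* (3.09 and 2.75 times).

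Secreted signals were mixed, also within families. Of 22 members 21 were compared, with 7 higher and 5 lower in both libraries, beside 3.02% and 13.4% of all genes. *Tgfb1* stood at 182.4 against 9.04 CPM in the E15.5 library and 203.2 against 47.1 CPM at E17.5, whereas *Tgfb2* (0.136 and 0.396 of the others) and *Tgfb3* (0.168 and 0.426) were lower. OG4 thus held one TGF-β ligand and was low for the other 2. *Pdgfa* stood at 170.2 against 16.9 CPM and 210.0 against 32.4 CPM. The BMP ligands *Bmp8a*, *Bmp2* (3.28 and 2.36 times) and *Bmp3* (2.35 and 2.16 times) were higher, and *Bmp4* (1.29 and 1.75 times) and *Bmp7* (0.874 and 0.997 times) were not. *Sost* and *Dkk1*, which encode secreted inhibitors of WNT signalling, were higher too, *Dkk1* at 143.7 against 8.44 CPM and 95.9 against 6.12 CPM. *Ihh*, which encodes Indian hedgehog, had 26 UMIs in OG4 at E15.5 (14.4 against 0.171 CPM), too few over all cells to be counted, and stood at 79.7 against 4.67 CPM at E17.5. The growth factors *Fgf18* (0.0235 and 0.0290 of the others) and *Igf1* (0.0639 and 0.0577) were among the lowest genes of OG4. *Igf2* was lower in OG4 within each library, but its level differed between the libraries 69.3-fold in OG4 and 46.3-fold in the other cells, and no stage value is read from it.

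Receptors went both ways. Of 22 members 3 were higher in both libraries and 6 lower, beside 3.02% and 13.4% of all genes. *Pth1r*, the receptor of parathyroid hormone and its related peptide, stood at 368.6 against 103.9 CPM in the E15.5 library and 544.1 against 113.1 CPM at E17.5. *Lifr*, a cytokine receptor, was 14.1 and 3.35 times the others, while its partner *Il6st* was at 0.441 and 0.470 of them. *Lrp4*, a receptor for sclerostin, was 3.84 and 2.05 times the others. *Tgfbr2* (0.297 and 0.283), *Tgfbr3* (0.122 and 0.140), *Pdgfrb* (0.199 and 0.174), *Fzd1* (0.257 and 0.257) and *Fzd2* (0.311 and 0.436) were lower. The receptors *Pdgfra* (1.73 and 0.782) and *Tgfbr1* (1.43 and 0.770) did not pass the limit in either library. *Ptch1*, a receptor and transcriptional target of hedgehog signalling, was 1.95 and 2.28 times the others, just under the limit at E15.5. Of the 6 compared genes of osteoclast regulation none was higher, and *Tnfsf11*, which encodes the osteoclast factor RANKL, was at 0.553 CPM and 1.33 CPM in OG4.

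Genes of loose and fibrous matrix were low in OG4. Of the 20 members of the list, 15 were lower in both libraries (beside 13.4% of all genes) and none was higher, with medians of 0.154 and 0.217. *Dcn*, which encodes the small proteoglycan decorin, stood at 530.0 against 5284 CPM in the E15.5 library and 291.1 against 2060 CPM at E17.5. *Col3a1*, the type III collagen gene, stood at 572.5 against 3014 CPM and 754.7 against 3322 CPM. Elastic fibre genes were low as well, among them *Eln* (0.153 and 0.164 of the others), *Fbn1* (0.0785 and 0.136) and *Mfap5* (0.0785 and 0.0804). Of the 11 genes of the progenitor and preosteoblast list, 6 were lower, among them *Six2* (0.314 and 0.210), *Pthlh* (0.0559 and 0.0905) and *Mmp13* (0.163 and 0.168), and *Tcf7* alone was higher. The 7 genes of the ectocranial and ligament list were all lower in both libraries, and 4 of 5 compared meningeal genes were. Among the genes lowest in OG4 with at least 500 UMIs outside it, *Agtr2*, which encodes an angiotensin receptor, stood at 43.7 against 709.1 CPM at E15.5.

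Summed markers of other cell types were lower in OG4 in some cases and higher in others. Chondrocyte genes summed to 622.8 CPM in OG4 and 502.4 CPM in the other cells at E15.5, and to 108.1 against 187.1 CPM at E17.5. Osteoclast genes summed to 318.3 against 228.7 CPM and to 319.4 against 354.5 CPM, most of it *Ctsk*, which encodes cathepsin K (274.1 and 289.3 CPM in OG4), and myeloid genes to 67.4 against 60.2 CPM and to 170.4 against 193.5 CPM. None of the 18 compared genes of these lists was 2-fold higher in OG4 in both libraries, beside 3.02% of all genes. *Acp5*, an osteoclast phosphatase gene, was 2.13 times the others in the E15.5 library and 0.989 in the later one. The neuron and glia genes summed to 1.11 CPM in the E15.5 library and 3.24 CPM at E17.5 in OG4. Of the 4 pericyte genes *Cspg4*, which encodes the proteoglycan NG2, was higher (2.54 and 3.23 times), while *Kcnj8* and *Abcc9* were lower. Erythroid genes summed to 9394 CPM in OG4 and 10910 CPM in the others at E15.5, and to 491.7 and 553.0 CPM at E17.5, with median ratios of 0.854 and 0.885. The part of these transcripts in the results was not tested. Transcripts of OG4 genes were also found outside OG4: at E17.5 76.6% of EC2 cells, an ectocranial cluster, had an *Ibsp* UMI and 34.9% had an *Ifitm5* UMI, at median depths of 12602 UMIs, against 31.5% and 9.95% at E15.5 and a depth of 9732. The *Ibsp* level outside the osteogenic clusters lay between 109.9 and 170.6 CPM at E17.5 in every ectocranial, ligament and meningeal cluster. The ratios above are to be read against that level, and its part in them was not tested.

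Among all clusters, the levels of OG4 were most like those of OG3 in the E15.5 library and of OG2 at E17.5. Across 12150 genes the rank correlation at E15.5 was 0.856 with OG3, followed by MG2 (0.840) and OG1 (0.831), and was 0.821 with OG2. At E17.5 it was 0.946 with OG2 and 0.944 with OG3. These are descriptions across genes of cells from 1 library. Against all other osteogenic clusters together, 312 of 9793 genes (3.19%) were at least 2-fold higher in OG4 in both libraries and 884 (9.03%) lower. Against OG2, 318 of 7856 genes (4.05%) were at least 2-fold higher in OG4 in both libraries and 385 (4.90%) lower. The largest ratios over OG2 belonged to *Bglap2* (414 and 271), *Dmp1* (1238 and 236) and *Bglap* (411.5 and 153). Against OG3, 227 of 5732 genes (3.96%) were higher and 288 (5.02%) lower. Among the 8 largest ratios over OG3 were those of *Gal* (202 and 102), *Ibsp* (91.7 and 86.5), *Col22a1* (280.5 and 46.5), *Smpd3* (160.5 and 38.0) and *Dmp1* (48.8 and 35.9). Several of these ratios over OG2 and OG3, those of *Gal* above all, rest on very few UMIs in the compared cluster and are imprecise. *Lipi* and *Mamdc2* had no UMI in OG3 at E15.5, so their ratios there are bounds of at least 42.9 and 44.3. *Sp7* at E17.5 and *Spp1* in both libraries, by contrast, were also held by OG3, although *Spp1* was more than 2-fold higher in OG4. *Mmp13*, a collagenase, was at 320.8 and 184.6 CPM in OG3 but 1.66 and 6.38 CPM in OG4. OG3 and OG4 thus were divided by *Ibsp*, *Smpd3*, *Dmp1* and *Mmp13*, and shared *Alpl*.

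Between the libraries, OG4 cells held relatively less bone matrix transcript at E17.5. Of 9328 genes compared, 1560 (16.7%) were at least 2-fold higher in OG4 at E17.5 and 619 (6.64%) lower by that factor. The same genes in the other labelled cells gave 539 (5.78%) and 453 (4.86%), and the median ratio over genes was 1.19 in OG4 and 1.05 in the others. That split depends on the scaling: with genes above 1% of UMIs left out of the total it was 1082 higher and 906 lower, and with median-ratio scaling 979 and 1009. Of 19 bone matrix genes compared, 14 were lower at E17.5 and 1 was higher, with a median ratio of 0.340 in OG4 and 1.44 in the other cells. The make-up of the other cells also differed, with 140 OG3 cells in the E15.5 library and 927 at E17.5, and with 1185 and 194 EC3 cells.

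*Ibsp* in OG4 was at 0.331 of its E15.5 level (0.328 to 0.334), with 14120, 14180 and 12940 CPM in the 3 suffixes of the E17.5 library. *Col1a1* was at 0.353 of its E15.5 level, with 24610, 16440 and 18700 CPM in the suffixes. For these genes every suffix lay below the E15.5 value. *Bglap* (0.0641), *Phex* (0.0640), *Bglap2* (0.113) and *Dmp1* (0.148) were lower still, and here the suffixes spread more: *Dmp1* stood at 191.4, 76.4 and 61.9 CPM, *Bglap* at 65.2, 30.5 and 171.1 CPM and *Phex* at 45.6, 8.67 and 17.1 CPM. In each suffix these genes were below the E15.5 level, although the suffixes differed among themselves several fold. For *Ibsp* the UMIs per cell differed less than the relative level, as E17.5 cells were deeper, with 392 per OG4 cell in the E15.5 library and 272 at E17.5. For *Ifitm5* they differed more than the relative level, at 31.1 and 64.5. *Ifitm5* relative to all UMIs was at 0.992 of its E15.5 level (0.965 to 1.02), *Mef2c* at 0.865 and *Smpd3* at 0.697. With the median-ratio scaling *Ifitm5* was at 0.832, so its equal level holds for totals of all UMIs only.

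Some named genes had a higher level in OG4 at E17.5. *Sp7* was 1.56 times its E15.5 level in OG4 and 18.5 times in the other cells. *Tcf7* went from 61.9 to 184.3 CPM, with 172.4 to 192.4 CPM in the suffixes, and was 9.79 times higher in the others. *Ihh* went from 14.4 to 79.7 CPM, with 77.9 to 87.1 CPM in the suffixes, and was 27.3 times higher in the others. For these 3 genes the ratio was thus larger outside OG4. *Cd24a*, which encodes a small surface glycoprotein, went from 86.8 to 237.2 CPM while in the other cells it was at 0.350 of its E15.5 level. *Ccnd1*, which encodes cyclin D1, was 3.37 times higher in OG4 and at 0.614 in the others. *Tppp3*, a tubulin-binding protein gene, went from 34.3 to 289.5 CPM, with 519.5, 240.0 and 247.9 CPM in the suffixes, and was 1.23 times higher in the others. *Cd24a*, *Ccnd1* and *Tppp3* thus were higher at E17.5 in OG4 and less so, or lower, in the rest of the suture. Other genes were lower in OG4 and higher in the rest: *Panx3*, which encodes a channel protein of osteoblasts, was at 0.787 in OG4 and 10.1 times higher in the other cells, *Kazald1* at 0.442 against 5.31, *Smpd3* at 0.697 against 8.28, and *Enpp1* at 0.170 against 5.83. The ratio of OG4 to the other cells even changed sides between the libraries, by 1.5-fold or more each way, for 69 of 12150 genes (0.568%), *Enpp1*, *Ccnd1* and *Tppp3* among them. Apart from *Ihh* and *Tcf7*, these genes were chosen because OG4 and the other cells differed most in this ratio.

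**Figure D3:**
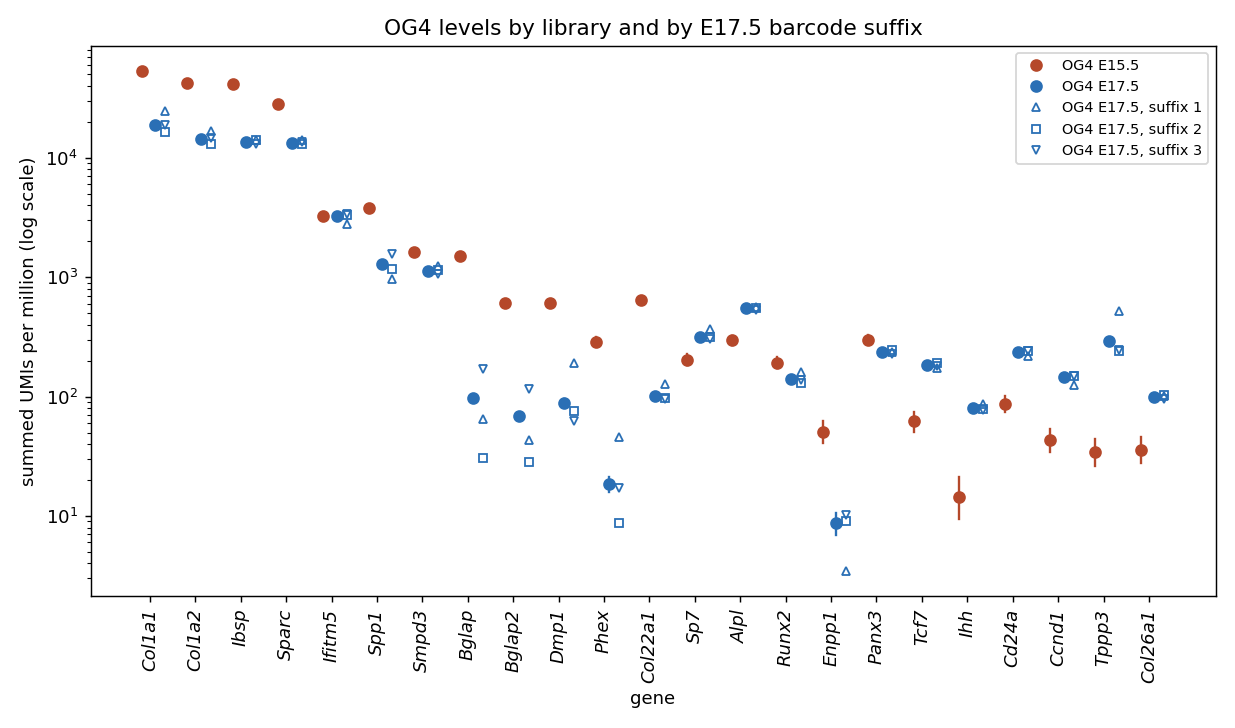
OG4 level (CPM, log axis) of matrix, osteocyte, transcription factor and signal genes in both libraries (red E15.5, blue E17.5), with open symbols for the 3 barcode suffixes found at E17.5 and bars for exact 95% Poisson intervals, mostly smaller than the points. *Ibsp*, *Col1a1*, *Dmp1*, *Phex* and *Bglap* lie lower at E17.5, *Ifitm5* lies at the same height and *Tcf7* and *Ihh* lie higher.

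OG4 was not uniform. *Ibsp* per cell had a median of 38840 CPM at E15.5 with a 10th to 90th percentile of 16880 to 88970 CPM. At E17.5 the median was 6866 CPM and the range 275.6 to 36580 CPM. *Ifitm5* had nearly the same spread in both libraries, with medians of 2707 and 2876 CPM and ranges of 853.4 to 6035 and 606.9 to 5875 CPM. The lower *Ibsp* sum at E17.5 thus came with a lower median and 90th percentile as well as a long lower range of cells. By contrast, *Ifitm5* kept its range. Some genes sat in few cells. For each gene separately, the 19 cells in the E15.5 library and the 53 cells at E17.5 with the most of its UMIs were taken. Such cells held 79.8% of all *Dmp1* UMIs in the E15.5 library and 97.2% at E17.5, 73.8% and 96.6% of *Spp1*, and 69.4% and 98.7% of *Bglap*. For *Ifitm5* the same share was 34.04% and 26.34%.

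**Figure D4:**
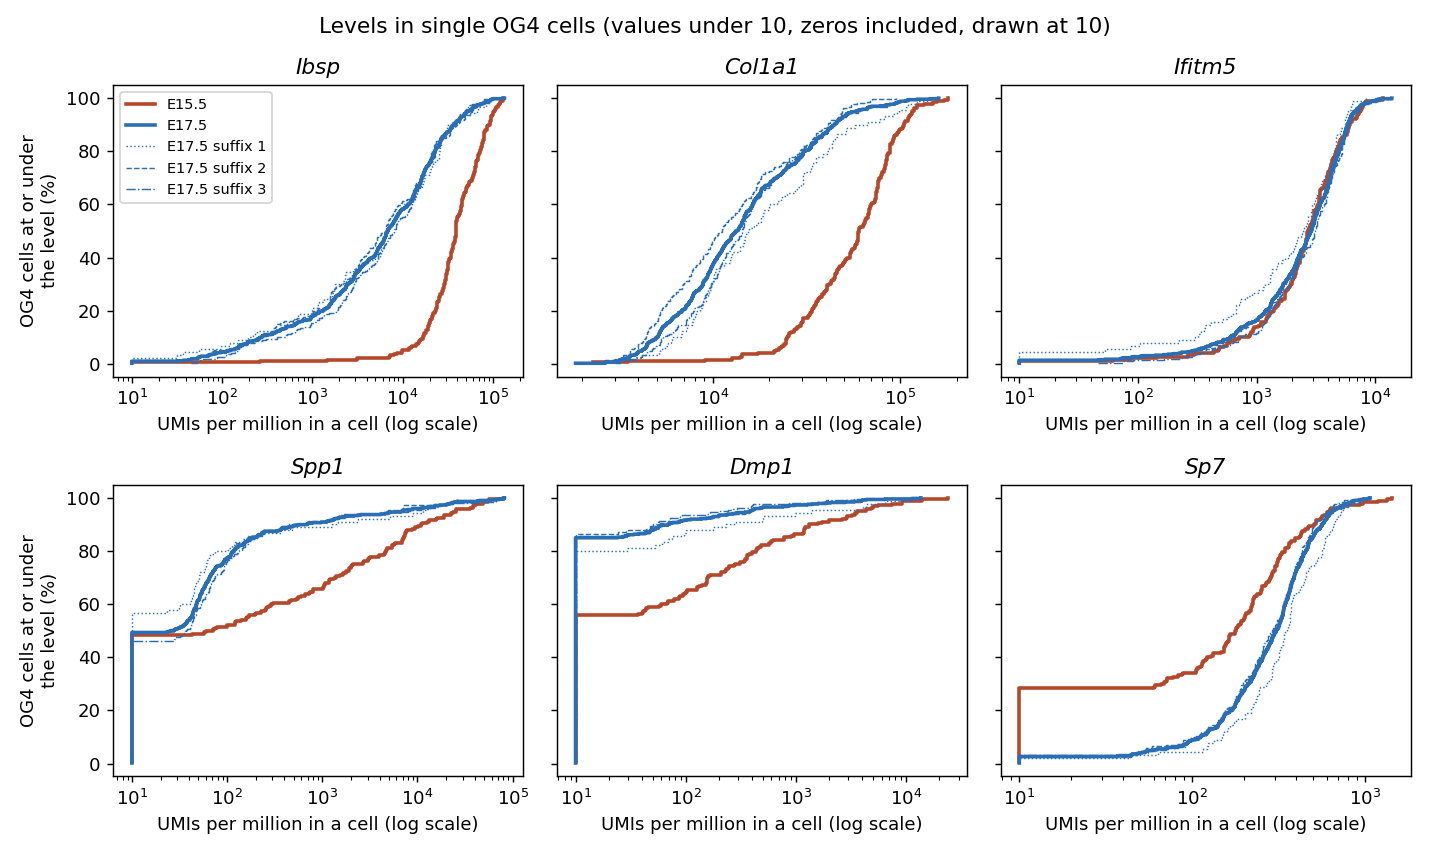
Cumulative percent of OG4 cells (vertical) at or under each level (CPM in a cell, log axis, values under 10 drawn at 10) for *Ibsp*, *Col1a1*, *Ifitm5*, *Spp1*, *Dmp1* and *Sp7*, with red lines for E15.5, thick blue for E17.5 and thin blue for its 3 suffixes. The *Ibsp* and *Col1a1* curves of E17.5 lie left of those of E15.5, with *Ibsp* medians of 6866 and 38840 CPM, and the *Ifitm5* curves overlie each other.

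At E17.5, 154 of 527 OG4 cells (29.2%, 25.4 to 33.3%) had an *Ibsp* level at or above 16880 CPM, the 10th percentile of E15.5. This limit was chosen after the values had been seen, it cuts a continuous range, and 121 cells lay within 1.5-fold of it. The suffixes held 32.2%, 27.8% and 29.4% of such cells. Median depth was 19501 UMIs in these cells and 19323 in the rest. Cells called G1 by the authors were 92.2% of the *Ibsp*-high cells (142 of 154) and 62.2% of the rest (232 of 373). Of 8897 genes compared between them, 186 (2.09%) were at least 2-fold higher in *Ibsp*-high cells and 697 (7.83%) lower, as a description with *Ibsp* itself fixed by the choice. *Plppr4* (13.3 times), *Sost* (5.98 times), *Phex* (5.30 times), *Pdpn* (5.09 times), *Dmp1* (4.76 times) and *Col1a1* (2.41 times) were higher there. *Spp1* (1.10 times) and *Sp7* (0.885) differed little, and *Tcf7* (0.725), *Ihh* (0.691) and *Cd24a* (0.561) were lower. *Bglap* (0.736) and *Bglap2* (0.512) were lower as well, unlike *Dmp1* and *Phex*, so the late bone genes did not move together. Cell division genes were lowest, such as *Aurkb* (0.0803), *Top2a* (0.155) and *Mki67* (0.182).

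The cell cycle list differed between the libraries as a whole. Its 12 genes had a median of 0.355 of the other cells in the E15.5 library and 0.715 at E17.5. Of them 10 were at least 2-fold higher in OG4 at E17.5, beside 16.7% of all genes compared. That share was smaller with the other scalings given above. The median stage ratio of the list was 2.63 in OG4 and 1.13 in the others. *Mki67* stood at 16.6 CPM in the E15.5 library and 37.2 CPM at E17.5, and *Cdc20* at 12.2 and 76.7 CPM. By the authors' phase calls, 4.74% of OG4 cells were in S and 7.89% in G2M at E15.5 (22.3% and 10.7% of the others), and 9.87% and 19.2% at E17.5 (20.5% and 14.8% of the others). These calls rest on the same kind of genes and on deeper cells at E17.5.

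Osteocyte genes were seen in most thinned OG4 cells of the E15.5 library and in a minority of the E17.5 one. Of the osteocyte list 12 of 14 genes were compared and 6 were higher in OG4 in both libraries, beside 3.02% of all genes. These were *Dmp1*, *Phex*, *Sost* (88.4 and 96.5 times), *Mef2c*, *Dkk1* and *Ptprz1* (30.0 and 8.14 times). To compare cells of unequal depth, each cell was thinned to 5000 UMIs, which left out 56 shallower cells in the E15.5 library and 5 at E17.5. After thinning, 95 of 134 cells (70.9%, 62.4 to 78.4%) had a UMI of *Dmp1*, *Phex*, *Mepe* or *Sost* at E15.5 and 57 of 522 (10.9%, 8.38 to 13.9%) at E17.5. A *Dmp1* UMI was seen in 34.3% and 7.85% of thinned cells, and in 44.21% and 14.99% before thinning. In EC2 cells, which should lack the gene, it was seen in 0.432% and 2.14% before thinning. *Fgf23*, the osteocyte hormone, had no UMI in any OG4 cell. At 134 and 522 thinned cells the exact 95% upper limits on the share of cells with a UMI were 2.715% and 0.7042%. They do not limit the share of cells that express the gene.

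*Dmp1*, *Phex* and *Sost* tended to fall in the same cells at E17.5. There, *Phex* was found in 14 of 41 thinned cells with *Dmp1* (34.1%, 20.1 to 50.6%) and in 15 of 481 without it (3.12%, 1.76 to 5.09%). At E15.5 the shares were 29 of 46 (63.0%, 47.6 to 76.8%) and 48 of 88 (54.5%, 43.6 to 65.2%), and their intervals overlapped. *Sost* was found in 4 cells at each stage, of which 4 and 3 had *Dmp1*. Comparing cells with and without *Dmp1*, 7 of 1464 genes (0.478%) were at least 2-fold higher in both libraries and 3 (0.205%) lower. Among genes with at least 30 UMIs in the *Dmp1* cells of each library, *Spp1* stood highest by the smaller ratio, at 4.50 times in the E15.5 library and 27.8 times at E17.5, followed by *Bglap2* (3.54 and 4.95 times), *Pdpn* (3.46 and 8.95 times), which encodes the podoplanin of cell processes, and *Phex* (2.68 and 24.8 times). *Ptprz1* (25 UMIs at E17.5) and *Hpgd* (19 and 8 UMIs), which fell under that minimum, were 4.53 and 13.3 times and 9.09 and 13.4 times higher in *Dmp1* cells. *Ibsp* (1.10 and 2.63 times) and *Col1a1* (1.31 and 2.83 times) were higher at E17.5, *Ifitm5* was at 0.693 and 1.27, and *Ptn*, which encodes the growth factor pleiotrophin, was lower at 0.253 and 0.425. Of the *Spp1* UMIs of thinned cells at E17.5, 2801 lay in the 41 cells with *Dmp1* and 1181 in the other 481.

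**Figure D5:**
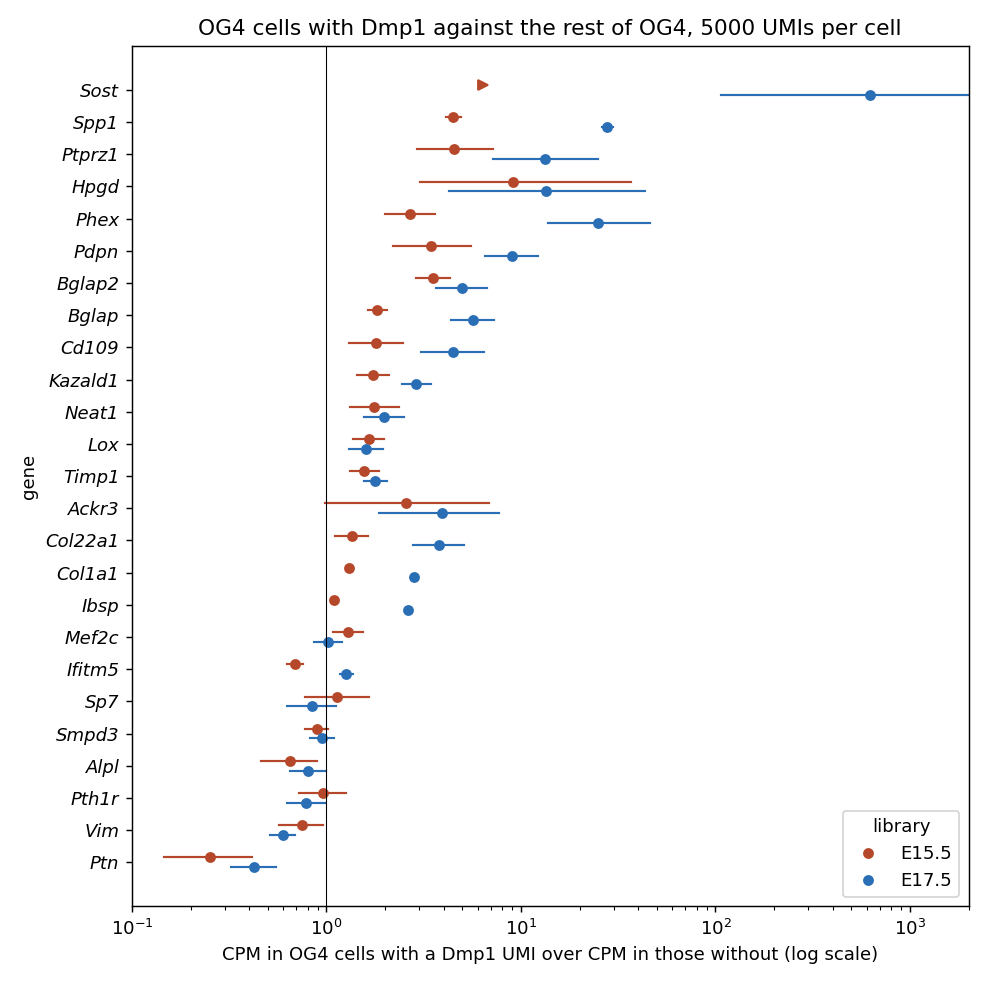
Ratio of level in OG4 cells with a *Dmp1* UMI to that in OG4 cells without one (log axis, cells thinned to 5000 UMIs) for selected genes in the E15.5 (red) and E17.5 (blue) libraries, with bars for exact 95% intervals of the ratio and a triangle for *Sost* at E15.5, which is a lower bound. *Spp1*, *Phex*, *Pdpn*, *Bglap2* and *Bglap* lie above 1 in both libraries, and *Ptn* lies below 1 in both.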

How the data were processed

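Both libraries were deposited as matrices of raw UMI counts per gene and barcode, which the authors made with Cell Ranger (3.1.0 per the file header at E15.5). The methods of the paper name an earlier version of it. The matrices list 31053 and 27998 genes, of which 27514 were matched by Ensembl ID. The authors clustered the cells in Seurat (3.2.0 in the submitters' processing notes) and deposited a table with each cell's library, cluster, phase, UMI count and percent of mitochondrial and haemoglobin reads. UMI totals of OG4 cells at E15.5 were lower in the matrix (median 7352) than in that table (9952), and the same at E17.5. Of the cells named at E15.5, 5 were not found in the matrix used here. The study's limits were at least 1000 UMIs and 1000 genes, at most 7.5% mitochondrial and 3% haemoglobin reads.

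Counts were summed over cells and divided by total UMIs (CPM), with exact Poisson, binomial (Clopper-Pearson) and conditional rate-ratio intervals at 95%. Genes with at least 50 UMIs over labelled cells in each library were compared, or at least 50 over OG4 cells for stages, and counted as higher or lower at 2-fold. With 1 library per stage no test was made. A ratio against 0 UMIs is a bound computed with 3 counts. Doublets were scored with simulated doublets in Python and marked from the 94th percentile, and none were removed. The authors sorted out doublets by flow cytometry at E17.5. Named genes were the label markers, list members with the highest level or the largest or smallest ratio, and genes ranked by ratio to the other cells (15, with at least 50 UMIs in OG4 in each library), by level (10 per library), by stage ratio relative to the other cells (8 per direction), by lowest ratio (10), against OG2 and OG3 (8 each) and in cells with *Dmp1* (10, with at least 30 UMIs there in each library). The members and the 24 gene lists were chosen with earlier results of these data known. Promoters came from RefSeq and gene positions from GENCODE M21. The software was scipy 1.17.1 with numpy 2.4.6, scanpy 1.11.5 and pandas 2.3.3 under Python 3.11.15, and the ratio steps were tested on simulated counts. Alternatives were other scalings, count minimums and limits, thinning, equal weight per cell, each E17.5 suffix alone, cells within the limits, cells without high doublet scores, and other osteogenic clusters as the comparison. A merged table of expression values was not used here. One gene of the transcription factor list is counted in its totals but not reported here.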

Additional observations from a re-analysis of the deposited data

Results flagged for a closer look

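The ratio of OG4 to the other labelled cells lay on opposite sides of 1 in the libraries, by at least 1.5-fold each way, for 69 of 12150 genes compared (0.568%), and 6 of the named genes were among them. *Tppp3* was at 0.281 of the other cells in the E15.5 library and 1.93 times them at E17.5. *Col26a1*, a collagen gene, was at 0.288 and 1.94, *Ccnd1* at 0.315 and 1.73, and *Atf3*, an immediate early gene, at 0.320 and 1.96. *Enpp1* ran the other way, at 19.8 times the others in the E15.5 library and 0.580 at E17.5, and so did *Pdgfc*, a growth factor gene, at 2.76 and 0.628. These differences between libraries were not tested, since there was 1 library per stage, and the make-up of the other cells differed as well.

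Some barcodes that carry no cluster label reached the low end of OG4 in *Ifitm5* and *Ibsp*. A barcode was counted when it had at least 3 *Ifitm5* UMIs and reached the 10th percentile of OG4 in both *Ifitm5* and *Ibsp* in its library, which 158 of 190 OG4 cells did in the E15.5 library and 441 of 527 at E17.5. The *Ibsp* limit was 16880 CPM at E15.5 but 275.6 CPM at E17.5, so the shares of the libraries are not directly comparable. The E17.5 limit lies far under the OG4 median of 6866 CPM and not far above the *Ibsp* level of the clusters outside the osteogenic ones. At E15.5, 30 of 7243 unlabelled barcodes outside the study's limits were counted (0.414%), with a median of 3766 UMIs and 7.99% mitochondrial reads, beside 0 of 5145 other labelled cells. Within the limits 1 of 2806 was counted. At E17.5, 42 of 559 unlabelled barcodes outside the limits were counted (7.51%), with a median of 5497 UMIs and 10.4% mitochondrial reads. A further 14 of 1937 within the limits were counted (0.723%), with a median of 40340 UMIs, beside 26 of 6303 other labelled cells (0.412%). OG3 and PO1 held 11 each of those 26 cells.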

How the results depend on the processing

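No paired analysis was possible because each stage had 1 library, and for the same reason no library could be left out. Over 1556 alternative values of 145 results, 53 of the values for the main counts and shares stayed within their limits and 23 moved. For single genes and medians of gene lists together, 1079 stayed, 399 moved and 2 reversed. List medians were judged by a 1.5-fold band, single genes by their intervals. The reversed ones were *Twist1* at E15.5 (0.862) and *Pdgfc* at E17.5 (1.01) against the other osteogenic clusters alone, where 884 genes were lower in OG4. The median ratio over all genes was -0.49 and -0.26 on the log2 scale for OG4 over the others and 0.25 between stages. Median-ratio scaling, which sets these to 0, gave 621 genes higher and 1100 lower in OG4, and 979 higher and 1009 lower at E17.5. Without genes above 1% of UMIs in the total the numbers were 431, 1409, 1082 and 906. Suffix 1 alone gave 797 genes higher and 399 lower at E17.5, and thinned cells 285 lower. A limit of 1.5-fold gave 733 genes higher and 2928 lower in OG4, and 3068 higher and 1353 lower at E17.5, and a limit of 3-fold gave 197, 864, 564 and 223. A minimum of 10 UMIs gave 578 higher in OG4 and 1202 lower at E17.5, and no minimum 2935 and 4284. OG4 was 2.21% and 6.01% of all barcodes within the limits. The E17.5 share of cells with an osteocyte gene was 14.6% in suffix 1 and 20.7% without thinning.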

Other observations

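Of 15 immediate early and heat shock genes, which respond to cell handling, *Zfp36* was higher in OG4 in both libraries (3.25 and 2.12 times the others) and *Hspa1b* lower. Over all genes compared, 3.02% were higher and 13.4% lower. *Jun* stood at 427.2 against 945.5 CPM in the E15.5 library and 179.4 against 189.1 CPM at E17.5, and *Fosb* at 299.0 against 225.2 CPM and 100.9 against 40.6 CPM.

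Further genes were chosen because their stage ratio differed between OG4 and the rest. *Tubb6*, a tubulin gene, was 4.43 times higher in OG4 at E17.5 and 1.00 times in the other cells, and *Map1b*, which encodes a microtubule-associated protein, 1.83 times and 0.441 times. *Insc*, which encodes a cell polarity protein, was 1.16 times higher in OG4 and 14.4 times in the others, and *Plppr4* was at 0.255 in OG4 and 4.34 in the others.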
